A study of Mus musculus with 6 samples.

Results

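The scaffold genes of the postsynaptic density were followed in hippocampal cells of mice described as overexpressing HuD, an RNA-binding protein of neurons. The genes were Dlg1, Dlg2, Dlg3, Dlg4, Shank1, Shank2, Shank3, Homer1 and Dlgap1. They were taken by name, with every probe set (the group of short probes that reads 1 transcript region) whose annotation holds exactly 1 gene symbol, that symbol being 1 of the 9. This gave 24 probe sets for 8 of the 9 genes, out of 34945 probe sets and 18193 genes with a single symbol. Shank2 was not analysed here.

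Total RNA was measured on 6 arrays. The control group had 3 arrays of 2 mice and the transgenic group, which carries the HuD transgene, had 3 arrays of 2 mice. In each group mouse 1 had 1 array and mouse 2 had 2. The captured cells are labelled DGCs, an abbreviation that in this field stands for dentate granule cells. The tag re-LCM, not explained in the labels, stands in the titles of 3 arrays, those of both mice numbered 1 and array 1 of transgenic mouse 2. The last of these titles also holds the word block, likewise unexplained. All 3 untagged arrays come from the mice numbered 2. No label used here gives the strain, age or sex of the mice, or the promoter that drives the transgene. The mouse assignment rests on the descriptions, and the titles call the arrays of control mouse 2 control 1 and control 2.

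The postsynaptic density is a protein meshwork under the membrane of excitatory synapses. Proteins of the Dlg family (SAP97, PSD-93, SAP102 and PSD-95) bind the tails of NMDA receptors and of AMPA receptor auxiliary subunits through PDZ domains. Dlgap1 (GKAP) links them to the Shank proteins below, and Homer proteins join Shank to metabotropic glutamate receptors. Granule cells carry this machinery on the spines that receive the perforant path.

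All 12 listed markers of granule cells passed the filter on low values, Dsp and Prox1 among them. Of other listed markers 10 of 12 interneuron, 9 of 10 astrocyte and 8 of 11 oligodendrocyte genes passed. Fewer passed for microglia (6 of 9), endothelial (4 of 8) and pyramidal cells (4 of 9). Passing was therefore not particular to granule cells. Elavl4, the gene that encodes HuD, did not have a higher mean in the mice labelled transgenic. Its 3 probe sets overlapped between groups, with differences of -0.73 to -0.15. Their 95% intervals all crossed 0, with upper bounds of 0.66, 1.11 and 0.97, so they also hold higher levels. Whether their probes match the transgene is not known here. The group names below are therefore those of the labels. The median intensity of an array lay between 32.3 and 36.8. Values under 10.1, the 25th percentile of all values, were set to that floor, which held for 23.9% to 26.4% of probe sets per array. A probe set passed the filter when its mean log2 intensity exceeded that of the median probe set. Summed intensity of the 8 tested oligodendrocyte markers was 12225 on control mouse 1, 6245 and 4821 on the other control arrays, and 5598 to 8284 on the transgenic arrays. Of the marker genes tested, every oligodendrocyte (8), astrocyte (9) and microglia (6) gene had a lower mean in transgenic mice, with list medians of -0.61, -0.34 and -0.31 and 0 genes called. So did 8 of 10 interneuron (median -0.39), 3 of 4 pyramidal (-0.45), 2 of 4 endothelial (-0.14) and 7 of 12 granule cell genes (-0.04). Control mouse 1 stood apart in these lists, with a mean level (log2, relative to the mean of the 6 arrays) of 0.92 for oligodendrocyte, 0.51 for interneuron and 0.46 for astrocyte genes. Within the untagged arrays 6 of 8 oligodendrocyte, 9 of 10 interneuron and 6 of 9 astrocyte genes were instead higher in the transgenic sample. Of the microglia genes 5 of 6 were lower. That comparison also leaves out transgenic mouse 1, and sets 1 transgenic array against 2 arrays of control mouse 2. On all arrays but control mouse 1, oligodendrocyte levels were -0.30 to -0.03 in control and -0.56 to 0.07 in transgenic samples. For interneuron genes these were -0.28 to 0.21 and -0.24 to -0.04, and for astrocyte genes -0.16 to 0.06 and -0.24 to -0.03. The part of other cell types in the scaffold values was not tested. In such captures fewer cells of a type and less RNA per cell cannot be told apart.

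No scaffold gene was called different between transgenic and control mice. Of the 24 probe sets 17 passed the filter, and they represent 7 genes, while the single Shank1 probe set did not pass. With the brightest probe set of each gene, 3 genes had a higher mean in the transgenic mice and 4 a lower one. The median log2 difference, transgenic minus control, was -0.12, against 0.00 over all 14678 genes tested. Differences of these probe sets come from the fit across genes, and those of other probe sets from a fit of all probe sets. Over single genes they ran from -0.36 for Shank3 to 0.12 for Dlg2. In limma with Benjamini-Hochberg adjustment 0 of the 7 passed 0.05 (adjusted p = 0.999 for each), as did 0% of all genes tested. An unadjusted p under 0.05 was reached by 0 of the 7 and by 632 of all genes. For these brightest probe sets the 95% interval of each of the 7 lay inside a 2-fold change in either direction. The lowest bound was 0.578-fold for Shank3 and the highest 1.53-fold for Dlgap1. In the fit of all probe sets, some others that passed the filter reached beyond 2-fold. They were Homer1 1436387_at (0.309 to 1.69), Dlg4 1419581_at (0.349 to 2.51), Dlgap1 1443508_at (0.384 to 1.52) and Dlg1 1450768_at (0.444 to 1.75). The rest that passed stayed inside 2-fold. Without control mouse 1 the median difference was -0.03, and without any other mouse or array it lay between -0.15 and -0.07.

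**Figure D1:**
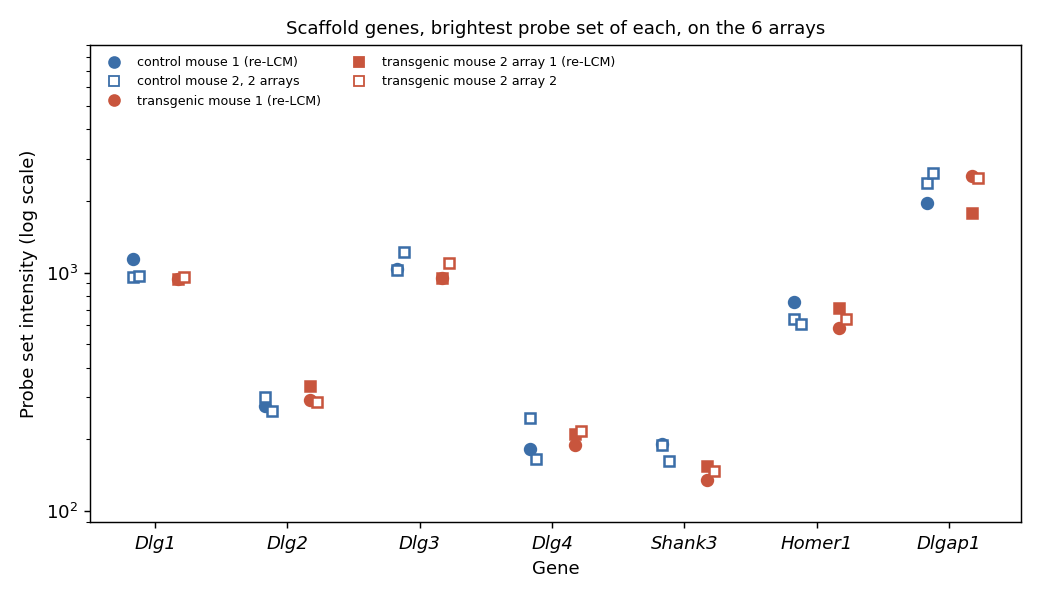
Intensity (log axis) of the brightest probe set of 7 scaffold genes on each of the 6 arrays. Blue is control and red transgenic, circles are mouse 1 and squares mouse 2, and filled symbols carry the tag re-LCM. The groups overlap for Dlg2, Dlg3, Dlg4, Homer1 and Dlgap1, while for Shank3 the transgenic arrays (135 to 155) lie below the control arrays (163 to 192).

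The SD of the brightest probe sets over the 6 arrays, on the log2 scale, ran from 0.11 to 0.23. Its median was 0.14, against 0.15 for the 10 actin linkers of spines, 0.18 for the 12 granule cell markers and 0.26 over all genes tested.

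Dlg1 encodes SAP97, which binds AMPA receptor subunit GluA1. Its brightest probe set, 1415691_at, read 1135 in control mouse 1 and 956 and 965 in control mouse 2, then 940 in transgenic mouse 1 and 936 and 954 in transgenic mouse 2. Values below keep that order. Only control mouse 1 stood apart, and the groups failed to overlap by the gap between 956 and 954. The difference was -0.15 (SE 0.17, interval -0.59 to 0.30), and it was -0.01 within the untagged arrays and -0.27 within the tagged ones. The second probe set, 1450768_at, read 79.0, 62.2 and 62.2 in control and 50.6, 80.1 and 71.2 in transgenic samples, with overlap. The third, 1445798_at, was under the floor on 2 arrays and at most 22.2 on the others.

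Dlg2 encodes PSD-93, a close relative of PSD-95. Its brightest probe set, 1437927_at, read 275, 302 and 263 in the controls against 293, 336 and 287 in the transgenic samples. The highest value was on transgenic mouse 2 array 1 and the groups overlapped, with a difference of 0.12 (SE 0.15). Probe set 1421200_at ran from 33.8 on control mouse 1 to 50.4 on transgenic mouse 2 array 2, and 1421199_at from 17.1 to 40.5, both with overlap.

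Dlg3 encodes SAP102, the member of the family that is prominent at young synapses. Its 1 probe set, 1416918_at, read 1036, 1025 and 1213 in control and 952, 953 and 1093 in transgenic samples. The second array of mouse 2 was the highest in each group. The difference was -0.12 (SE 0.16, interval -0.54 to 0.29), with overlap.

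Dlg4 encodes PSD-95, the main scaffold of mature excitatory synapses. Its brightest probe set, 1419580_at, read 182, 245 and 166 in the controls against 189, 211 and 217 in the transgenic samples. Control mouse 2 alone spanned the whole range, from 166 to 245, so its 2 arrays differed by more than any transgenic pair. The difference was 0.07 (SE 0.17, interval -0.37 to 0.51). Without array 2 of control mouse 2 it was -0.07, and without array 1 of that mouse 0.21. The dimmer probe sets gave -0.09 (1419581_at, 27.6 to 58.0) and -0.02 (1460261_at, 2.09 to 33.5).

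Shank3 encodes the large scaffold that joins the Dlgap1 layer to Homer and to actin. It gave the largest difference among the 7 genes. Its 1 probe set, 1419137_at, read 192, 190 and 163 in the controls against 135, 155 and 148 in the transgenic samples. Every transgenic value lay below every control value. The control mice averaged 7.52 ± 0.09 on the log2 scale and the transgenic mice 7.16 ± 0.12 (SD, n = 2), which differ by -0.36 (SE 0.16, interval -0.79 to 0.07), or 0.779-fold. In limma it did not pass (adjusted p = 0.999).

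The direction of Shank3 was the same with and without the tag, at -0.41 within the tagged and -0.25 within the untagged arrays. Leaving out 1 mouse or array at a time gave -0.44 to -0.28. When every probe set was fitted without a filter the SE was 0.10 and the interval -0.70 to -0.02, but the adjusted p was still 0.747 over 45037 probe sets. That fit also called 0% of all probe sets, with a smallest adjusted p of 0.538 and 2923 at an unadjusted p under 0.05.

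Control and transgenic arrays did not overlap for 2 of the 7 genes, Shank3 and Dlg1, both lower in transgenic samples. Over all genes tested 4.22% were lower without overlap and 3.86% higher. Among the 24 probe sets the count was 3 lower and 0 higher, against 4.01% and 3.01% of all probe sets. The third was Homer1 probe set 1425671_at, which is at or under the floor on all 3 transgenic arrays and at most 16.6 in control samples, so the floor sets its difference. With so few members these counts rest on Shank3, on the narrow gap of Dlg1 and on a probe set at the floor.

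Shank1 encodes a relative of Shank3. Its probe set, 1444240_at, read 26.0, 9.40 and 72.8 in the controls against 30.7, 22.3 and 28.1 in the transgenic samples. The lowest and the highest value came from the same control mouse, a 7.23-fold range after the floor, and no direction was read from this dim probe set.

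**Figure D2:**
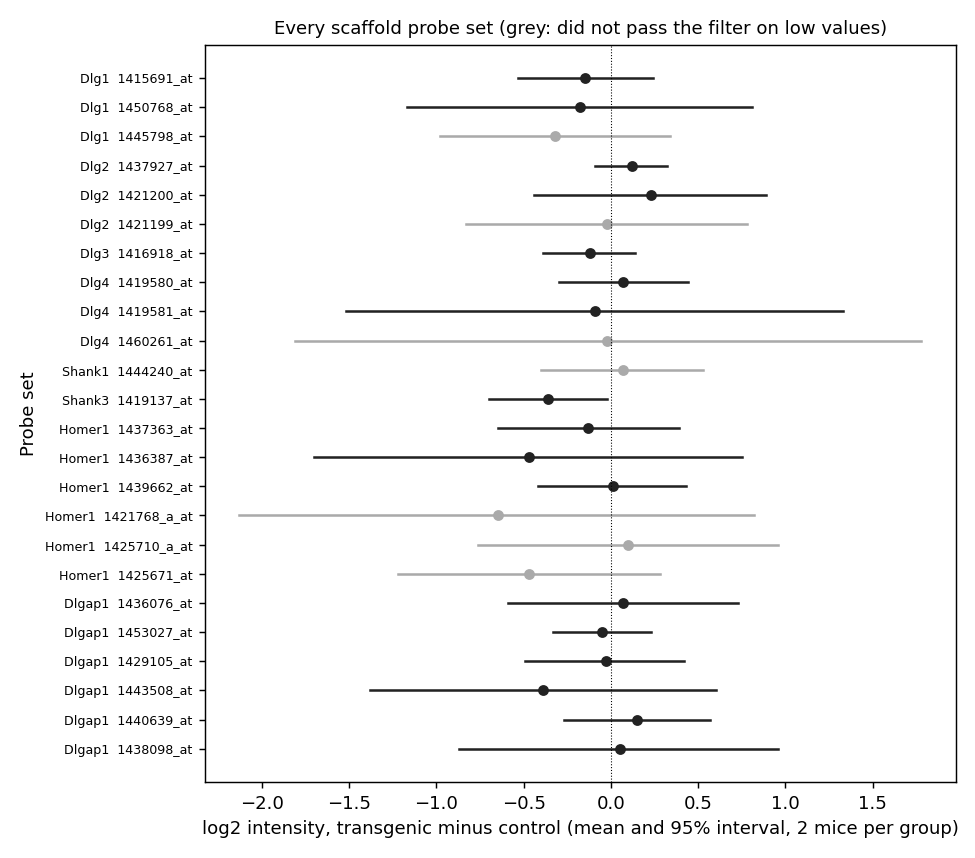
Difference in log2 intensity, transgenic minus control, for each of the 24 scaffold probe sets, with the 95% interval of the unfiltered limma fit on 2 mice per group. Black probe sets passed the filter on low values and grey ones did not, and 16 of the 17 black intervals cross 0, the exception being Shank3 1419137_at.

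Homer1 encodes both long proteins that tetramerise and cross-link Shank with receptors, and a short form, Homer1a, that is induced by neuronal activity and uncouples them. Which of the 6 probe sets read which form was not examined. The promoter of Homer1 is shown because Homer1 held the probe set that varied most among those past the filter. The sequence covers 250 bases before to 50 bases after a start site in RefSeq (GRCm38.p6, chr13:93303507-93303806, plus strand), and capitals mark TGACGT, the core of the cAMP response element.
Homer1: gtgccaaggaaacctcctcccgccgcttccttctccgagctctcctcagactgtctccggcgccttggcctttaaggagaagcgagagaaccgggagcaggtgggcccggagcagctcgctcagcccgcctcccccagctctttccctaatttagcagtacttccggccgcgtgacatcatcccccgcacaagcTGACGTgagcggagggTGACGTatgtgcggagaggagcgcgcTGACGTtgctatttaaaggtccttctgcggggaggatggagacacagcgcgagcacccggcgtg
The motif was searched on both strands (TGACGT and ACGTCA, so that a full palindromic element counts as 2). It was found 56, 40 and 14 bases before the start site, 3 matches without overlap. Of 32851 RefSeq promoter windows of 300 bases, 7.51% hold at least 1 match and 0.201% at least 3. The other Homer1 window and the 15 windows of Dlg1, Dlg2, Dlg3, Dlg4, Shank3 and Dlgap1 hold none. A match is only a run of letters, and binding was not measured.

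The Homer1 probe sets that passed the filter gave unlike patterns. The brightest, 1437363_at, read 753, 641 and 606 in the controls against 584, 709 and 638 in the transgenic samples. Its range over the 6 arrays was 1.29-fold, and its difference was -0.13 (SE 0.19). Probe set 1439662_at read 171, 131 and 161 in control and 151, 149 and 185 in transgenic samples, a difference of 0.01. Both overlapped between groups. Probe set 1436387_at read 405, 495 and 657 in the controls against 274, 248 and 772 in the transgenic samples, a 3.11-fold range. Both the lowest and the highest of these values came from transgenic mouse 2.

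The values of 1436387_at separated by the tag instead of by the group. The 3 tagged arrays read 248 to 405 and the 3 untagged ones 495 to 772. The tag was fitted beside the group with the 6 arrays as separate samples, so its p-values measure the spread between arrays, 2 of them from the same mouse in each group. Tagged minus untagged was -1.03 (SE 0.31) on the log2 scale, with an adjusted p of 0.897 in limma over all probe sets. Among transgenic arrays alone it was -1.56. Among control arrays alone it was -0.49, and there tag and mouse cannot be told apart, since mouse 1 is the tagged one. The lowest value, 248, is on the array whose title also holds the word block. The tag effect was examined after these values were seen. Without array 2 of transgenic mouse 2 the tag can be read from control arrays only, and without control mouse 1 from transgenic arrays only. These leave-outs therefore repeat -0.49 and -1.56 and add no check. Without the second array of each mouse 2 the tag effect was -0.29, again from control arrays only. Leaving out 1 of the other arrays gave -1.19 to -0.92. The transgenic minus control difference was -0.47 (SE 0.36, interval -1.70 to 0.75) over the mice. It was -0.63 within the tagged and 0.44 within the untagged arrays, so its sign differed between them. The untagged value sets 1 transgenic array against 2 arrays of control mouse 2, and the tagged value has 1 control array. Tag, mouse and single arrays cannot be told apart there.

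Among the 24 scaffold probe sets 1 was lower on every tagged array and 1, Dlgap1 1440639_at, higher, against 4.58% and 4.01% of all probe sets. Dlg2 1421200_at overlapped by tag but also gave a lower tagged mean, at -0.30 (SE 0.09, adjusted p = 0.897 in limma). The fit of the tag called 0% of all probe sets (smallest adjusted p = 0.296). A ratio often read as a sign of RNA integrity moved with the tag, and integrity itself was not measured here. The Actb control probe sets for the 3′ and 5′ ends gave a 3′ to 5′ ratio of 17.4, 14.8 and 19.4 on tagged arrays and 22.7, 24.2 and 27.8 on the untagged ones, and for Gapdh it was 6.46 to 7.06 and 7.87 to 8.63. Cell type markers also gave tag differences. Of the 12 granule cell genes 5 were lower on every tagged array and 0 higher, with a median tag difference of -0.10. Over all 14678 genes tested, 905 were lower and 814 higher. Median tag differences were 0.46 for oligodendrocyte, 0.17 for astrocyte, 0.17 for interneuron, 0.13 for endothelial, 0.02 for microglia and -0.30 for pyramidal genes. The part of RNA integrity or of cell types in the Homer1 values was not tested. Among activity-induced genes, Junb was also lower on every tagged array (-1.09, SE 0.54), but the median tag difference of the 6 tested genes of that list was 0.10.

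**Figure D3:**
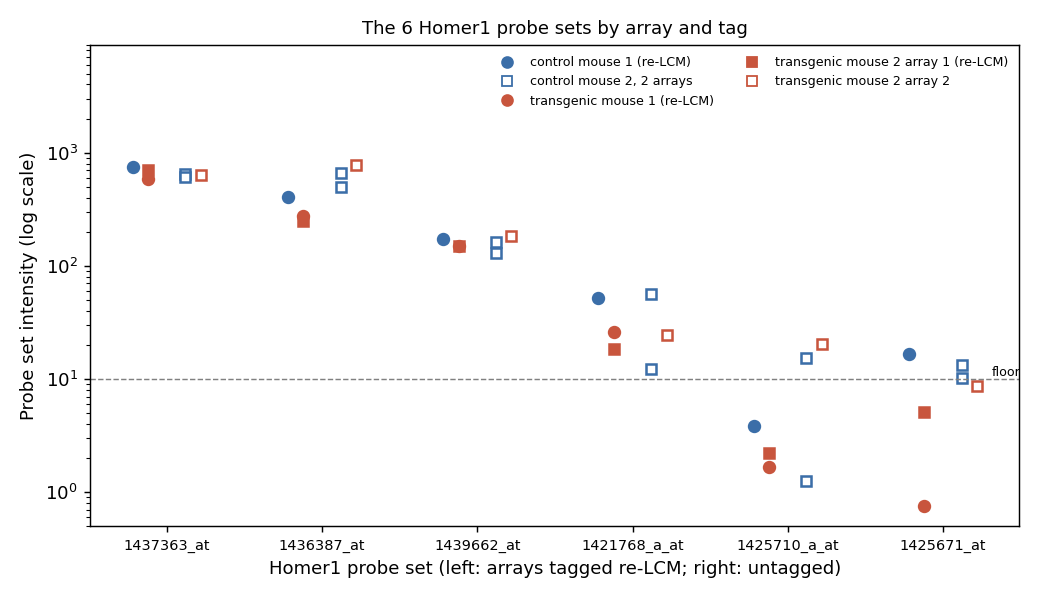
Intensity (log axis) of the 6 Homer1 probe sets, with arrays tagged re-LCM on the left and untagged arrays on the right of each position. Symbols are as in the plot of scaffold genes by array, and the dashed line is the floor of 10.1. For 1436387_at the untagged arrays (495 to 772) lie above the tagged ones (248 to 405), while for 1437363_at the same arrays overlap.

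The remaining Homer1 probe sets were dim. Probe set 1421768_a_at ran from 12.2 to 56.9, both on arrays of control mouse 2. Probe set 1425710_a_at was at or under the floor on 4 arrays, and 1425671_at on 3.

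Dlgap1 encodes GKAP, the bridge between Dlg proteins and Shank. All 6 of its probe sets passed. The brightest, 1436076_at, read 1956, 2362 and 2605 in the controls against 2546, 1774 and 2489 in the transgenic samples. Control mouse 1 and transgenic mouse 2 array 1 were the low ones, both tagged (the latter also with the word block in its title), and transgenic mouse 1, also tagged, was high. The difference was 0.07 (SE 0.21, interval -0.47 to 0.61).

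The other 5 Dlgap1 probe sets gave differences of -0.39 to 0.15, and all overlapped between groups. The lowest was 1443508_at, with 295, 236 and 286 in control and 169, 268 and 262 in transgenic samples. Its difference of -0.39 (SE 0.29) rested on transgenic mouse 1, the only transgenic value outside the control range. Probe set 1453027_at was the steadiest, at 962, 1050 and 924 in control and 992, 840 and 941 in transgenic samples.

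Dlgap1 1436076_at had the largest SD among the 7 genes. The named genes most like it over the 6 arrays were Ap1g1 (Pearson's r = 0.992), Atg12 (r = 0.984) and Zfp180 (r = 0.983). These are descriptions over 6 arrays of 4 mice. With so few points 42 of 11137 named genes reached a correlation of at least 0.95.

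Genes that work with these scaffolds were described from 5 lists, and none was called in limma (adjusted p = 0.999 for each). Of 18 partner scaffolds 17 were tested, 10 with a higher and 7 with a lower mean (median 0.05). Mpp2, a membrane-associated guanylate kinase, gave 0.83 (SE 0.38), with 1.44 within the tagged and 0.28 within the untagged arrays. Lin7c and Lin7a, small PDZ proteins that bind Cask, gave -0.43 (SE 0.19) and -0.39 (SE 0.24), but within the untagged arrays Lin7a was at 0.05.

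Of 14 signalling proteins of the postsynaptic density 11 were tested, 6 with a higher and 5 with a lower mean (median 0.08). Iqsec1, an exchange factor for Arf6 in spines, gave 0.72 (SE 0.16), 1.64-fold, without overlap between groups. It gave 0.53 within the tagged and 0.95 within the untagged arrays, but the adjusted limma p was 0.999. Of the other genes named from the 5 lists, Mpp2 was also higher without overlap, and Lin7c, Fyn, Cacng8 and Grin2b lower. Over all genes tested the shares were 3.86% higher and 4.22% lower, but the named genes were picked by p. The tyrosine kinase Fyn gave -0.43 (SE 0.18) and the kinase subunit Camk2b 0.39 (SE 0.25), which was -0.08 within the untagged arrays.

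Of 12 actin linkers of spines 10 were tested, 7 with a higher and 3 with a lower mean (median 0.04). Drebrin (Dbn1) gave 0.32 (SE 0.25), Baiap2, which binds Shank and PSD-95, 0.17 (SE 0.16), and Ctnnd2 -0.10 (SE 0.19). Within the untagged arrays Dbn1 was at -0.25 and Ctnnd2 at 0.07. Of 20 tethered receptors and adhesion proteins 14 were tested, 7 in each direction (median -0.03). The lowest was Cacng8, an AMPA receptor auxiliary subunit that binds PSD-95, at -0.57 (SE 0.15), followed in p by Gria3 at 0.31 and Grin2b at -0.31 (SE 0.18). Of 8 activity-induced genes 6 were tested, 1 with a higher and 5 with a lower mean (median -0.11), with Egr1 at -0.28 (SE 0.19), Fos at -0.41 (SE 0.59) and Bdnf at -0.11 (SE 0.18). Egr1 and Fos were at 0.13 and 0.28 within the untagged arrays. Arc and Npas4 did not pass the filter.

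**Figure D4:**
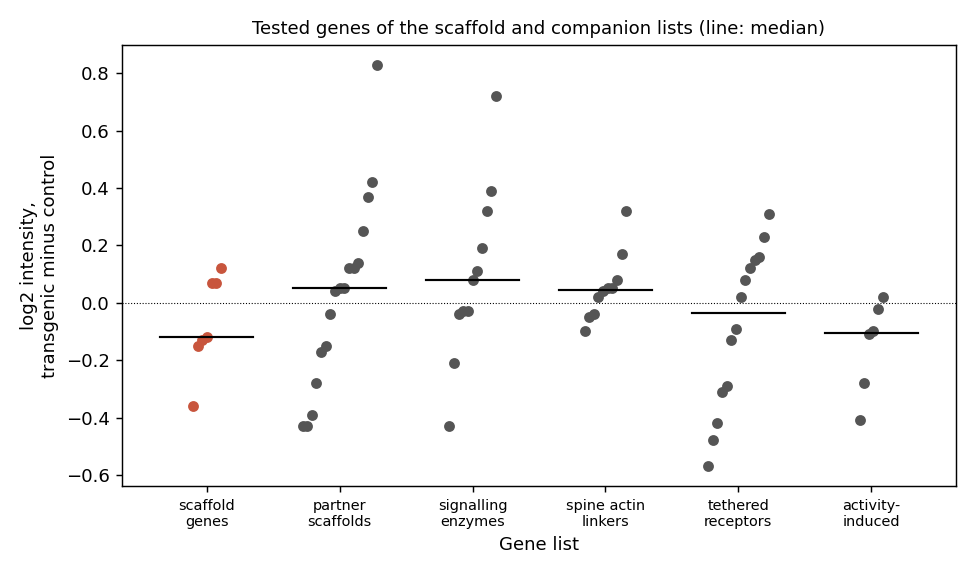
Difference in log2 intensity, transgenic minus control, of each tested gene of the scaffold list (red) and of 5 companion lists (grey), with the median of each list as a line. The list medians lie between -0.12 and 0.08, and the points farthest from 0 are Mpp2 (0.83), Iqsec1 (0.72) and Cacng8 (-0.57).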

How the data were processed

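The deposited values are probe set intensities on a linear scale, already scaled: from the values, the 2% trimmed mean was 150.001 on each of the 6 arrays. The program and background correction behind the deposited intensities were not given in the sources used. Depth has no meaning for arrays, and their number limits precision. Without 64 control probe sets, 45037 remained. Gene symbols came from the platform annotation, with 34945 probe sets of 1 symbol, 932 of several and 9160 of none. RefSeq identifiers (GRCm38.p6) matched 34741 and changed 0 symbols. Values were floored at 10.1 and log2 taken. Arrays of a mouse were averaged. Transgenic and control mice were compared across all genes (14678, of which 11138 have a symbol and are read by their brightest probe set, while probe sets without 1 symbol stand alone) and across all 45037 probe sets, using limma 3.58.1 (lmFit, eBayes; R 4.3.3), with 2 residual and, across genes, 2.70 prior degrees of freedom. The fit was run on simulated arrays with planted differences, each array drawn independently, so without a spread between mice. Only the size of the planted differences was required to come back, so this is no check of the calls.

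The text names every scaffold gene, up to 3 genes of smallest p from each companion list and the 3 genes most correlated with the most variable member. Junb, Arc, Npas4, Dsp and Prox1 were named after their values were seen. Members and lists were chosen with earlier results of these data known. P-values of the group comparison measure the spread between 2 mice per group, and those of the tag re-LCM the spread between the 6 arrays, which were not averaged in that fit. Alternatives changed the normalization, floor, filter, probe set choice, replicate unit, block, tag, variance model and arrays included.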

Additional observations from a re-analysis of the deposited data

How the results depend on the processing

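No alternative called a scaffold gene or probe set. The smallest adjusted p in limma over the alternatives was 0.393 for genes and 0.291 for probe sets, both with the mouse as a random block. Arrays of the same mouse correlated at -0.54 in that model. This correlation rests on the mice numbered 2 alone, and the arrays of transgenic mouse 2 differ in the tag. With it the SE of Shank3 was 0.11, against 0.16 in the main fit, so these p-values rest on an uncertain variance. Dlg1, Dlg2, Dlg3 and Shank3 kept their direction in all 20 alternatives, Shank3 between -0.44 and -0.25. The median over the 7 genes was -0.05 with 6 arrays as separate samples, -0.07 with the mouse as a random block or the tag as a term, 0.01 within the untagged arrays and -0.15 to -0.03 over leave-outs. The sign turned for 3 genes with small differences. With the mean of the probe sets that passed, Dlg4 was at -0.01 and Dlgap1 at -0.03. Dlgap1 was at -0.03 with 6 separate arrays. With the random block Homer1 was at 0.02 and Dlgap1 at -0.12. Within the untagged arrays Homer1 was at 0.03. Over leave-outs Dlg4 ran from -0.07 to 0.21, Homer1 from -0.26 to 0.01 and Dlgap1 from -0.10 to 0.24. The cause was not tested. With the mouse number as a replicate block 0 genes were called (smallest adjusted p = 0.959 among members, median -0.12). The labels do not say that the number marks a shared litter or day. Both mice numbered 1 carry the tag re-LCM. The deviations of mouse 1 in both groups correlated at 0.03 across genes. With 2 mice per group this value cannot decide whether a litter, day or processing run was shared. Leaving out a mouse leaves 1 sample in that group, which is assumed to vary like the other. A single probe set each for Dlg3, Shank1 and Shank3 gives no second reading.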
